A study of Homo sapiens with 6 samples.

Results

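Newly made secretory proteins leave the endoplasmic reticulum in vesicles shaped by the COPII coat, and some need a receptor in the membrane to be loaded. MCFD2, a soluble calcium-binding protein, and LMAN1, a mannose-binding lectin that spans the membrane and cycles between the endoplasmic reticulum and the intermediate compartment, work as one such receptor. Loss of either gene causes a combined deficiency of coagulation factors V and VIII. The coat is started by the small GTPase SAR1, which recruits dimers of SEC23, the subunit that stimulates GTP hydrolysis, and SEC24, the subunit that binds cargo and cargo receptors.

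The genes described here are 10 of the 60671 genes measured, found by their gene symbols: the receptor genes MCFD2 and LMAN1, the related lectin gene LMAN2, the GTPase gene SAR1A, and the inner coat genes SEC23A, SEC23B, SEC24A, SEC24B, SEC24C and SEC24D. They were chosen by results of the same comparison described below, in which MCFD2 had stood out, so their RNA levels under the 2 siRNA treatments are given as a description, without a test. All 10 passed the filter on low counts. Their loci are given on GRCh38 from GENCODE v29.

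RNA was sequenced from 6 cultures of KGN cells, a human line derived from a granulosa cell tumour. All had been edited with CRISPR so that the genotype is FOXL2 WT/WT, the labels do not say how many edited clones were used, and all were collected 30 h after transfection with siRNA. The 3 FOXL2 siRNA libraries received 30 pmol of a pool of 3 siRNAs against FOXL2, a forkhead transcription factor of granulosa cells, and the 3 control siRNA libraries received an equal amount of a scrambled siRNA. The FOXL2 pools were drawn from 4 siRNAs, of which 1 was in every pool and another was absent from each, so these libraries did not repeat one exact treatment and shared any effect of the common siRNA on other genes. Apart from these separate pools, nothing stated says whether the cultures were independent. The spread between FOXL2 siRNA libraries therefore includes any difference between pools, and that between control libraries may be technical.

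Summed expected counts ranged from 23843192 to 28791954 per library. Control libraries held FOXL2 at 9.88, 9.71 and 10.8 CPM (counts scaled to library size) and FOXL2 siRNA libraries at 2.64, 3.31 and 2.36 CPM, which left 27.3% of its control mean. FOXL2 siRNA replicate 2 stood apart from the other 5 libraries, with a score of 40.9 on the first principal component (31.2% of the variance) against scores from -17.2 to -0.02. Of 10 granulosa markers, 6 had a mean of at least 1 TPM (a level scaled to library size and transcript length), among them NR5A1, AMH, INHBA and FST, while FSHR was at 0 in every library and CYP19A1, AMHR2 and INHA were at or below 0.68 TPM. Of 14 markers of other cell types only SOX9 reached that mean. The summed level of the granulosa markers ran from 171 to 183 TPM in control and from 147 to 171 TPM in FOXL2 siRNA libraries, and that of the other markers from 7.18 to 9.29 and from 6.05 to 11.5 TPM. The granulosa sums overlapped between treatments. They include FOXL2 itself, at 5.28 to 5.72 TPM in control and 1.27 to 1.9 TPM in FOXL2 siRNA libraries. NR5A1 went the other way, at 34.6 to 35.3 and 36.9 to 39.2 TPM, while AMH, INHBA and FST overlapped.

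MCFD2 lies on chr2:46901870-46941855, minus strand. Its upstream end faces TTC7A, a gene on the plus strand that starts inside the MCFD2 locus at chr2:46916157-47076137, so the start regions of both genes share DNA. The sequences below, from RefSeq promoter windows on GRCh38.p14 and read on the gene's own strand, are the parts of those windows that no GENCODE v29 exon covers. They are shown for MCFD2, the gene whose RNA level differed most between treatments, and for SAR1A, a coat gene whose CPM did not overlap between treatments. Capitals mark GGGCGG (the GC box) or CCAAT on either strand, and the closing CC of the first sequence opens a CCAAT that runs on past its end.
MCFD2, chr2:46915869-46915980, minus strand, between annotated starts: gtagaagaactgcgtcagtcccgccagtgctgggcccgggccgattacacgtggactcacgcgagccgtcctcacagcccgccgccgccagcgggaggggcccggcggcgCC
MCFD2, chr2:46916113-46916156, minus strand, between an annotated MCFD2 start and the TTC7A start: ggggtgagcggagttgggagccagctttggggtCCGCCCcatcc
SAR1A, chr10:70170524-70170764, minus strand: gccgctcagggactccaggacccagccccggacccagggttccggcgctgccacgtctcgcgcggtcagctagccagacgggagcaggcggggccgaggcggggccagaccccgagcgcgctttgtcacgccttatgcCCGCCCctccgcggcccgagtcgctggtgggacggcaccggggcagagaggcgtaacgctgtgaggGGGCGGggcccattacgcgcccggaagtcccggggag

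These stretches were rich in G and C, at 74.1%, 70.5% and 75.1% of their bases. RefSeq gave 12 windows, each with 250 bases before and 50 after a start, for 9 of the 10 genes and none for SEC24D. The forkhead word AAANAAA, with any base but G in the middle, was searched on both strands. It was in 21.2% of all 35116 windows, and among the 12 windows only that of SEC24C held it. That the letters are missing from a window says nothing of binding elsewhere. A GC box was in 9 of the 12 windows and in 45.0% of all windows. CCAAT was in 6 of the 12 and in 34.6% of all. The 12 windows are not all separate. The MCFD2 windows chr2:46916004-46916303 and chr2:46916063-46916362 overlap and hold the same CCAAT and the same GC box, so each site is counted in both. The ER stress element (CCAAT and CCACG with 9 bases between them) was in none of the 12 and in 0.0769% of all windows. Runs of 8 G doublets with 1 to 4 bases between them, a feature of the RNAs that FOXL2 binds in vitro, were searched in the longest annotated transcript of each gene. Among the 10 genes only LMAN2 held 1, and 19.3% of 15530 genes held at least 1. MCFD2, with a transcript of 4210 bases at 44.1% GC, held none.

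MCFD2 RNA was lower in every FOXL2 siRNA library. Control libraries held it at 591, 580.1 and 588 CPM and FOXL2 siRNA libraries at 304, 349 and 327 CPM. The means were 586 ± 5.7 and 327 ± 22.4 CPM (SD, n = 3), so 55.7% of the control level was left, and the log2 fold change was -0.84 (SE 0.06). Each FOXL2 siRNA library was below every control library, and the 3 pools kept 51.8%, 59.5% and 55.7% of the control mean. On the TPM scale, which divides by transcript length, MCFD2 was at 279, 276 and 261 in control and at 141, 167 and 154 in FOXL2 siRNA libraries, again without overlap. Over all settings tried the log2 fold change stayed between -0.90 and -0.80. In RNA from whole cultures, fewer cells with a transcript and less of it per cell cannot be told apart. Any part of the granulosa marker levels, which did not all move in the same direction, was not tested.

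The genes that share DNA with MCFD2 did not pass the test. TTC7A, on the opposite strand, was at 38.8, 36.4 and 36.3 CPM in control and at 37.8, 38.5 and 42.8 CPM in FOXL2 siRNA libraries, with a log2 fold change of 0.10 (SE 0.08). The edgeR adjusted p of TTC7A was 0.613. The antisense RNA AC016722.2, which overlaps the end of MCFD2, was at 1.71, 2.57 and 2.16 CPM in control and at 1.21, 1.57 and 1.67 CPM in FOXL2 siRNA libraries. The treatments did not overlap, as for 20.5% of all genes tested. The means were 2.15 ± 0.43 and 1.48 ± 0.24 CPM (SD, n = 3), with a log2 fold change of -0.53 (SE 0.22) and an edgeR adjusted p of 0.342. The kit marked the strand, and whether the counting used it is not given in the sources used here, so reads from overlapping stretches may have been split between these genes.

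**Figure D1:**
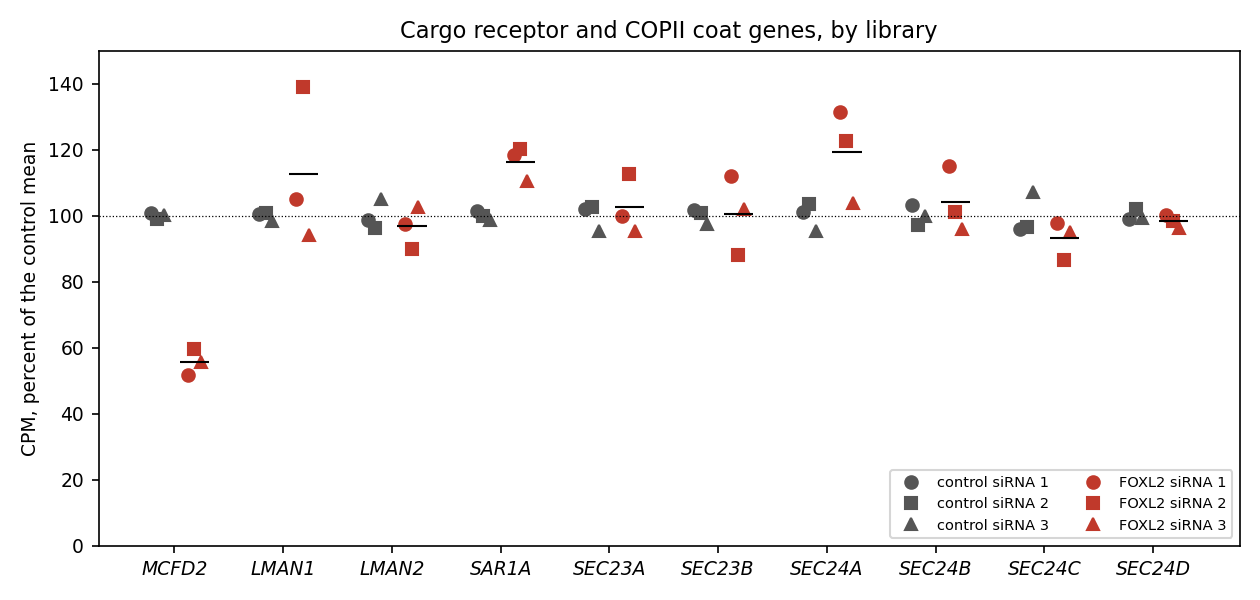
CPM of each gene in each library, as a percent of the mean of the 3 control libraries (dotted line at 100), with control siRNA libraries in grey, FOXL2 siRNA libraries in red, symbols by replicate number, and a black line at the FOXL2 siRNA mean. MCFD2 sits at 51.8% to 59.5% in the FOXL2 siRNA libraries, SAR1A at 110.5% to 120.3% and SEC24A at 104% to 131%, and the other 7 genes overlap the control libraries, with LMAN1 at 139% in replicate 2.

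LMAN1, the lectin partner of MCFD2 (chr18:59327823-59359962, minus strand), did not show the lower level. It was at 193, 193 and 188 CPM in control and at 201, 266 and 180.2 CPM in FOXL2 siRNA libraries. The treatments overlapped, and FOXL2 siRNA replicate 2 was the only library far from the rest. The log2 fold change was 0.17 (SE 0.12), and without FOXL2 siRNA replicate 2 it was -0.01, so the higher mean came from that library. The 2 partners therefore differed in ratio. MCFD2 was at 4.20, 3.99 and 3.88 times the TPM of LMAN1 in control and at 2.03, 1.74 and 2.37 times in FOXL2 siRNA libraries, which gave means of 4.02 ± 0.17 and 2.05 ± 0.31 (SD, n = 3).

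LMAN2 encodes a lectin of the same family that travels between the endoplasmic reticulum and the Golgi (chr5:177331562-177351852, minus strand). It was at 133, 129.8 and 141 CPM in control and at 131, 121 and 138 CPM in FOXL2 siRNA libraries. Its treatments overlapped, with a log2 fold change of -0.05 (SE 0.07).

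**Figure D2:**
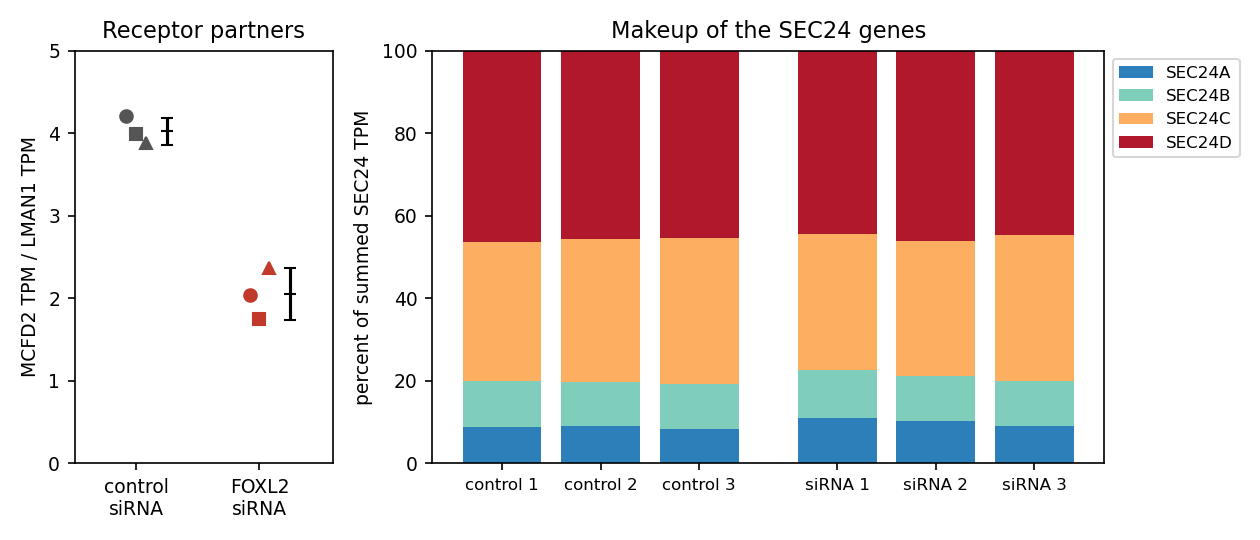
Left, the ratio of MCFD2 TPM to LMAN1 TPM in each library with mean and SD (n = 3), at 3.88 to 4.20 in control and 1.74 to 2.37 in FOXL2 siRNA libraries. Right, the percent of the summed TPM of the 4 SEC24 genes that each contributed, by library, with SEC24D the largest share in all 6.

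SAR1A, the GTPase that starts the coat (chr10:70147289-70170523, minus strand), was higher in every FOXL2 siRNA library. It was at 127, 125 and 123 CPM in control and at 148, 150.4 and 138 CPM in FOXL2 siRNA libraries, which gave 125 ± 1.65 and 145 ± 6.52 CPM (SD, n = 3) and a log2 fold change of 0.22 (SE 0.06). The treatments did not overlap in CPM. They did in TPM, where control libraries were at 75.2, 79.6 and 76.1 and FOXL2 siRNA libraries at 83.0, 79.4 and 87.6. The effective length that RSEM gave SAR1A in FOXL2 siRNA replicate 2 was 2986 bases against 2337 to 2608 in the other 5 libraries. With effective lengths as offsets in edgeR the log2 fold change was 0.11.

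SEC23A and SEC23B encode the subunits that act on SAR1, and loss of SEC23B causes a congenital dyserythropoietic anaemia. SEC23A (chr14:39031919-39109646, minus strand) was at 214, 216 and 199.8 CPM in control and at 209.5, 236 and 200.3 CPM in FOXL2 siRNA libraries. SEC23B (chr20:18507482-18561415, plus strand) was at 56.3, 55.9 and 54.0 CPM in control and at 62.1, 48.8 and 56.4 CPM in FOXL2 siRNA libraries. For each gene the treatments overlapped, and FOXL2 siRNA replicate 2 was the highest library for SEC23A and the lowest for SEC23B. SEC23A made up 82.5 ± 0.38% of the summed SEC23 TPM in control and 81.2 ± 1.67% in FOXL2 siRNA libraries (SD, n = 3).

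Among the cargo-binding SEC24 genes, SEC24A (chr5:134648789-134727823, plus strand) was at 50.8, 52.0 and 48.0 CPM in control and at 66.1, 61.6 and 52.2 CPM in FOXL2 siRNA libraries. The lowest FOXL2 siRNA library was just above the highest control library, and the log2 fold change of 0.25 (SE 0.09) was the largest of the 9 genes other than MCFD2. On the TPM scale the treatments overlapped, with 15.8, 15.9 and 14.9 in control and 19.9, 17.8 and 15.5 in FOXL2 siRNA libraries. SEC24A overlaps SAR1B, the gene of the second SAR1 GTPase, by 483 bases at its start on the other strand (chr5:134601144-134649271). SAR1B was at 45.2, 45.4 and 43.3 CPM in control and at 46.6, 60.4 and 41.8 CPM in FOXL2 siRNA libraries, with overlap and an edgeR adjusted p of 0.626.

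SEC24B (chr4:109433772-109540896, plus strand), the closest relative of SEC24A, was at 53.2, 50.1 and 51.5 CPM in control and at 59.4, 52.2 and 49.6 CPM in FOXL2 siRNA libraries. SEC24C (chr10:73744384-73772161, plus strand) was at 157, 158 and 175 CPM in control and at 159.6, 141 and 155 CPM in FOXL2 siRNA libraries. SEC24D (chr4:118722823-118838683, minus strand), the relative of SEC24C, was at 180.4, 186 and 181 CPM in control and at 183, 179.7 and 175 CPM in FOXL2 siRNA libraries. Each of these 3 overlapped between treatments, with log2 fold changes of 0.06 (SE 0.08), -0.10 (SE 0.07) and -0.02 (SE 0.05). SEC24D was the steadiest, at 182 ± 3.03 and 179 ± 3.69 CPM (SD, n = 3).

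The makeup of the SEC24 genes was also compared by TPM, with SEC24D the largest share in every library. SEC24D gave 45.8 ± 0.54% in control and 45.0 ± 0.91% in FOXL2 siRNA libraries, SEC24C 34.6 ± 0.95% and 33.8 ± 1.52%, SEC24B 10.8 ± 0.24% and 11.1 ± 0.46%, and SEC24A 8.79 ± 0.36% and 10.1 ± 0.91% (SD, n = 3). SEC24A contributed 8.87%, 9.10% and 8.39% in control and 10.9%, 10.2% and 9.06% under FOXL2 siRNA, where the lowest library fell inside the control range.

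Of the 10 genes, 1 (MCFD2) passed an adjusted p of 0.05 in edgeR, beside 0.255% of the 15663 genes tested, and nothing is read from this count because MCFD2 was picked on it. The CPM of the treatments did not overlap for 3 of the 10 (MCFD2, SAR1A and SEC24A), beside 20.5% of all genes tested. The median log2 fold change of the 9 genes other than MCFD2 was 0.04, against 0.01 over all genes tested. Signs were the same in all 18 settings, the reported one included, for 6 of the 10 genes, and LMAN1, SEC23A, SEC23B and SEC24B took either sign.

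Levels between genes were compared in TPM, which is per length. In control libraries MCFD2 was the highest of the 10 with a mean of 272 TPM (509th of all genes), ahead of SEC23A at 178 and LMAN2 at 175 TPM. SEC23A and LMAN2 overlapped, and every other pair of neighbours was separated in the control libraries. SEC24D followed at 81.1, SAR1A at 77.0, LMAN1 at 67.55, SEC24C at 61.2, SEC23B at 37.8, SEC24B at 19.15 and SEC24A at 15.5 TPM. In FOXL2 siRNA libraries MCFD2, at 154 ± 12.9 TPM, was the third of the 10, behind LMAN2 at 174 ± 7.54 and SEC23A at 166 ± 25.9 TPM (SD, n = 3). There the range of SEC23A, from 136 to 181 TPM, overlapped those of MCFD2 and LMAN2.

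**Figure D3:**
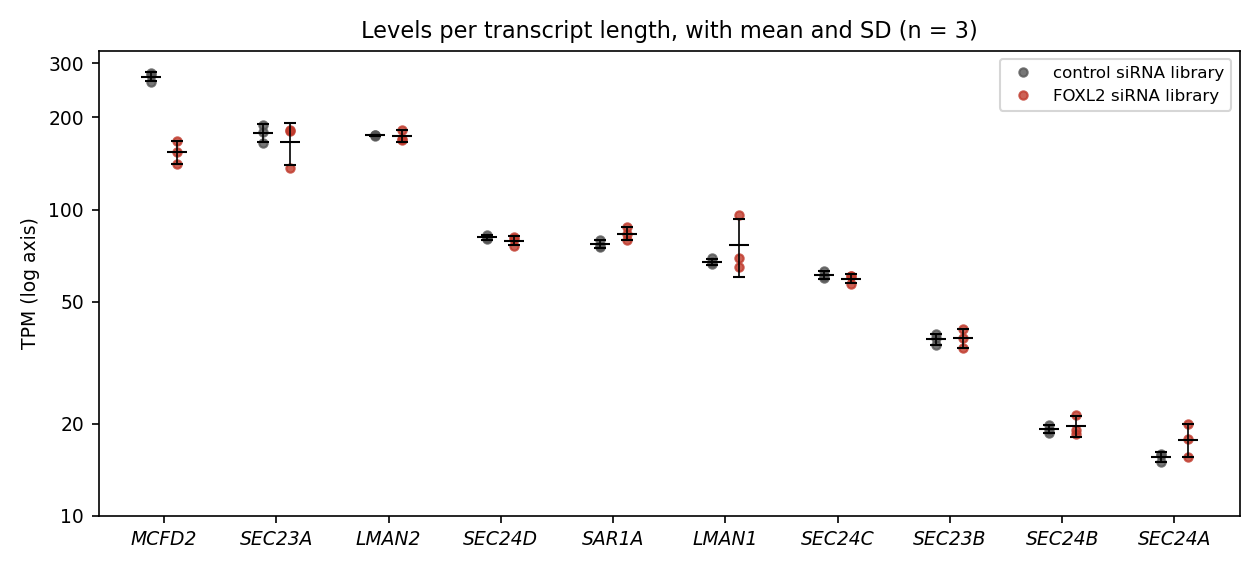
TPM of each gene on a log axis in every library, control siRNA in grey and FOXL2 siRNA in red, with mean and SD (n = 3), ordered by control mean. MCFD2 goes from the top position at 272 TPM to 154 TPM, below LMAN2 at 174 TPM.

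The effective length that RSEM gave a gene in a library depends on the mix of transcripts assigned to it and is not their full length. It was not used to choose the genes and could be tested. By limma on the log2 scale, none of the 10 passed the test between treatments (adjusted p from 0.894 to 0.969), and 0 of 15662 genes did (0%), while 854 (5.45%) had an unadjusted p below 0.05. MCFD2 had 3152, 3134 and 3273 bases in control and 3152, 3292 and 3146 bases in FOXL2 siRNA libraries, with a log2 difference of 0.00 (SE 0.03), so its lower count was not accompanied by a detectable change of effective length. SEC23A stood out in 1 library. It had 1769, 1700 and 1756 bases in control, 1693 and 1641 in FOXL2 siRNA replicates 1 and 3, and 2736 in replicate 2, which is 1.57 times the control mean. In that library SEC23A had its highest CPM and its lowest TPM, 136 against 165 to 189 in the other libraries. Replicate 2 was the library with the most genes more than 1.5 times from their control mean length, 4.12% against 0.881% to 1.90% in the others.

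The rest of the early secretory pathway was tested in the same edgeR fit, with 88 genes in 6 lists, of which 86 passed the filter. LMAN1L, a relative of LMAN1, and F5, the coagulation factor V gene, did not pass. Of the 86, 43 had a positive and 43 a negative log2 fold change, with a median of 0.00. By edgeR 1 gene, HYOU1, was called after adjustment over all genes tested, beside the 0.255% of all genes. At an unadjusted p below 0.05 there were 8 higher and 8 lower, beside 13.5% of all genes in either direction. DESeq2 called 3 of the 86 (HYOU1, CTSC and DNAJB9), beside 3.06% of all genes it tested. The CPM did not overlap between treatments for 21 of the 86, beside 20.5% of all genes tested. The counts of each list below are to be read beside these same shares.

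Of 13 other COPII genes, among them SEC13 and SEC31A of the outer cage and SAR1B, none passed by edgeR, and at an unadjusted p below 0.05 there were 1 higher and 1 lower, with a list median of -0.01. The largest differences were those of MIA2 and MIA3, which act at endoplasmic reticulum exit sites in the export of large cargo such as collagen. MIA2 was at 13.8, 14.4 and 13.7 CPM in control and at 15.0, 17.6 and 16.3 CPM in FOXL2 siRNA libraries (log2 fold change 0.22, SE 0.09, edgeR adjusted p = 0.336). MIA3 was at 65.9, 64.2 and 67.6 CPM in control and at 48.2, 65.3 and 56.3 CPM in FOXL2 siRNA libraries (log2 fold change -0.22, SE 0.10, edgeR adjusted p = 0.387). Without FOXL2 siRNA replicate 2 edgeR called MIA3, with a log2 fold change of -0.34 and an adjusted p of 0.0407, and TFG, which organises exit sites and is named after its values were seen. TFG had a log2 fold change of -0.21 (edgeR adjusted p = 0.661) with all libraries and of -0.50 (0.00812) without that one. The fit without that library called 579 of the 16025 genes it tested, against 40 of 15663 with all 6 libraries. With length offsets MIA3 was at -0.41 in both tools, with an adjusted p of 0.00207 by DESeq2 and 0.0951 by edgeR, and without FOXL2 siRNA replicate 1 it was at -0.12.

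Of 22 other cargo receptor genes, 21 passed the filter and none was called by edgeR, with 4 higher and 0 lower at an unadjusted p below 0.05 and 17 positive against 4 negative log2 fold changes. Their median was 0.14, and it was 0.07 both without FOXL2 siRNA replicate 2 and with length offsets in edgeR. TMED7, of the p24 receptor family, had the largest log2 fold change at 0.65 (SE 0.31, edgeR adjusted p = 0.400), which rested on replicate 2. It was at 48.8, 46.3 and 42.0 CPM in control and at 52.2, 118 and 45.0 CPM in FOXL2 siRNA libraries, and its log2 fold change without that library was 0.08. CNIH2, of the cornichon family, was the second at 0.46 (SE 0.26, edgeR adjusted p = 0.468), with 0.56 to 0.82 CPM in control and 0.87 to 1.11 CPM in FOXL2 siRNA libraries.

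The COPI coat, which carries receptors back to the endoplasmic reticulum, held no called gene among 15, with 1 higher and 0 lower at an unadjusted p below 0.05 and a median of 0.00. ARF4, a GTPase of the ARF family, was at 278, 282 and 273 CPM in control and at 338, 367 and 297 CPM in FOXL2 siRNA libraries (log2 fold change 0.27, SE 0.08, edgeR adjusted p = 0.209), and its log2 fold change was 0.17 with length offsets in edgeR. COPZ1, a COPI subunit, had a log2 fold change of 0.11 (SE 0.06, edgeR adjusted p = 0.470), and of 0.07 without FOXL2 siRNA replicate 1. Among 18 tethers and SNAREs none was called either, with 1 higher and 1 lower at an unadjusted p below 0.05 and a median of -0.01. BET1, a SNARE of transport to the Golgi, was at 10.5, 11.02 and 10.4 CPM in control and at 14.3, 18.5 and 11.9 CPM in FOXL2 siRNA libraries (log2 fold change 0.48, SE 0.15, edgeR adjusted p = 0.240), and its log2 fold change was 0.30 without FOXL2 siRNA replicate 2. BNIP1, a SNARE of the return route, had a log2 fold change of -0.26 (SE 0.11, edgeR adjusted p = 0.338).

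Of 6 secretory proteins known to use LMAN1, 5 passed the filter and had negative log2 fold changes in the reported fit, with a median of -0.16 and none called by edgeR (1 lower at an unadjusted p below 0.05). The signs were not stable. With length offsets in edgeR 1 of the 5 was positive and the median was -0.09, and without FOXL2 siRNA replicate 1 there were 2 positive and the median was -0.04. CTSC, the lysosomal protease cathepsin C, was at 184, 183 and 163 CPM in control and at 138, 129.5 and 135 CPM in FOXL2 siRNA libraries, without overlap. Its log2 fold change was -0.40 (SE 0.07), with an adjusted p of 0.0542 by edgeR and 0.000152 by DESeq2, so it lay close to the threshold in edgeR. With edgeR it was called with no filter on low counts (adjusted p = 0.0498), with only genes averaging 50 counts or more (0.0497), with length offsets (0.04997) and without FOXL2 siRNA replicate 2 (0.0193). It was not called by edgeR without control siRNA replicate 1, 2 or 3 (adjusted p of 0.383, 0.344 and 0.135) or with the replicate block (0.108). Nor did edgeR call it without FOXL2 siRNA replicate 1 (0.0657) or 3 (0.121). With limma-voom its adjusted p was 0.06, and with limma on log2(TPM + 1) and log2(TPM + 0.1) it was 0.117 and 0.108. SERPINA1, the gene of the protease inhibitor alpha-1 antitrypsin, was near the limit of detection at 0.36 to 0.56 CPM in control and 0.22 to 0.52 CPM in FOXL2 siRNA libraries.

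Among 14 ER stress genes, HYOU1, a chaperone of the endoplasmic reticulum, fell. It was at 209.8, 224 and 248 CPM in control and at 103, 145 and 141 CPM in FOXL2 siRNA libraries, with a log2 fold change of -0.81 (SE 0.12) and an edgeR adjusted p of 0.0467. The call was lost when any 1 control library was left out, with edgeR adjusted p from 0.177 to 0.256, and without FOXL2 siRNA replicate 3, with 0.0915. It was also lost with length offsets in edgeR (0.0561) and with limma on log2(TPM + 1) and log2(TPM + 0.1) (adjusted p of 0.154 and 0.142), while the log2 fold change stayed between -0.90 and -0.67 without any 1 library. The call held in the other settings, among them DESeq2 (adjusted p = 1.53e-08), the replicate block in edgeR (0.0348) and edgeR without FOXL2 siRNA replicate 2 (0.00585). Over all genes, edgeR called 2, 3 and 2 without control siRNA replicates 1, 2 and 3. DNAJB9, a cochaperone, had the opposite sign, at 10.8, 9.30 and 11.3 CPM in control and 15.0, 19.8 and 12.5 CPM in FOXL2 siRNA libraries (log2 fold change 0.58, SE 0.17), with an adjusted p of 0.198 by edgeR and 0.0424 by DESeq2, and its log2 fold change was 0.38 without FOXL2 siRNA replicate 2. The list had 1 higher and 5 lower genes at an unadjusted p below 0.05 and a median of -0.08. Over all genes tested, 13.5% had such a p in either direction. Of the 14 genes, 9 had negative and 5 positive log2 fold changes. The CPM did not overlap for 6, beside 20.5% of all genes. The lower genes other than HYOU1 were DNAJB11 (log2 fold change -0.25), HSPA5 (-0.22), PDIA4 (-0.18) and HSP90B1 (-0.14), named after their values were seen. Their edgeR adjusted p ran from 0.169 to 0.310 with all libraries.

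**Figure D4:**
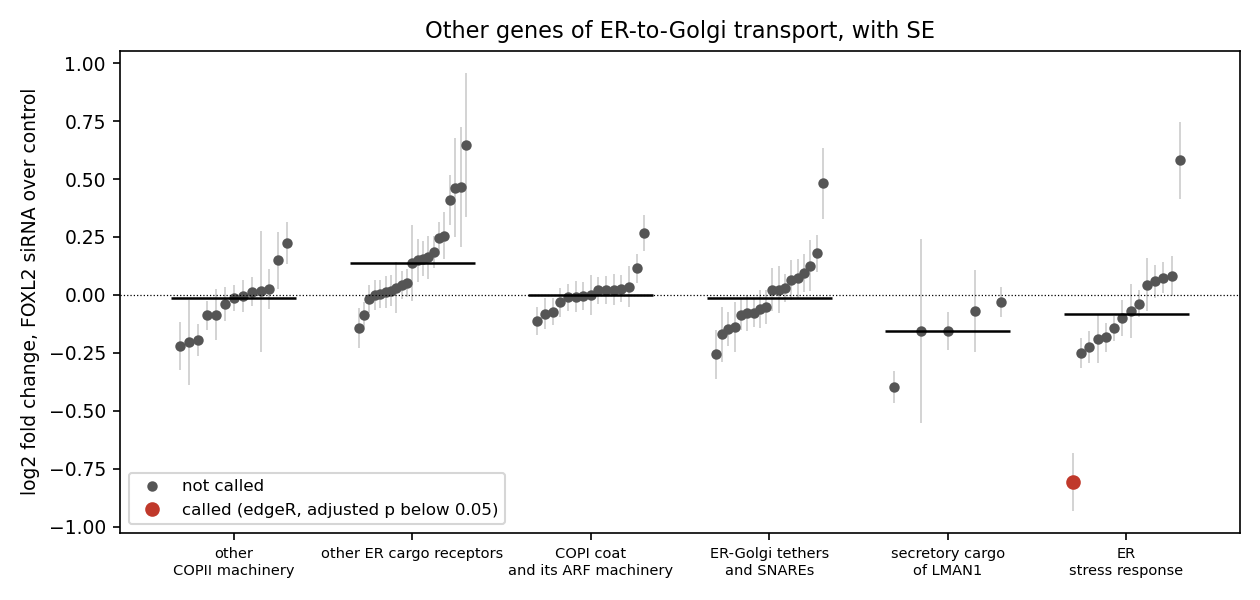
Log2 fold change (FOXL2 siRNA over control siRNA) with SE for the 86 tested genes of the 6 further lists, each point 1 gene, with a black line at the list median. The only gene called by edgeR, in red, is HYOU1 at -0.81.

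The 5 genes whose log2 CPM followed MCFD2 most closely over the 6 libraries were TGFBR2, a TGF-beta receptor (Pearson r = 0.995), FOXL2 (0.992), EFNB1, an ephrin ligand (0.992), CIR1 (0.991) and ME1, the cytosolic malic enzyme (0.990). MCFD2 did not overlap between the 2 treatments, and all genes of a library share its scaling. So r here mostly measures that all 5 were lower in every FOXL2 siRNA library, and it is given as a description. The size of the change is not part of r. The log2 fold change was -0.56 for TGFBR2, -1.88 for FOXL2, -0.22 for EFNB1, -0.43 for CIR1 and -0.30 for ME1, against -0.84 for MCFD2. TGFBR2 had the highest r, at 285, 275 and 277 CPM in control and at 176, 205 and 188 CPM in FOXL2 siRNA libraries. Within the FOXL2 siRNA libraries MCFD2, TGFBR2, FOXL2, CIR1 and ME1 were highest in replicate 2, and EFNB1 in replicate 3 (6.22, 6.36 and 6.45 CPM). The 5 genes were picked for their likeness to MCFD2 over these same libraries, so nothing is read from their highest library. None of the other 9 receptor and coat genes was near the top of this order, with r from -0.92 for SAR1A to 0.49 for SEC24C (3618th of 15662 genes).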

How the data were processed

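RNA from 6 cultures was made into stranded mRNA libraries. Per the labels' processing notes the tools included STAR 2.7.6a, Picard 2.8.1 and RSEM 1.3.1. Those notes name the mouse build GRCm38 while all gene identifiers are human, and the annotation release is not given in the sources used here. The authors deposited, for each gene and library, the RSEM expected count (estimated, not whole), TPM and an effective length. Deposited FPKM were not used. Expected counts were rounded, filtered (filterByExpr), scaled by TMM and tested with the quasi-likelihood test of edgeR 4.0.16 in R 4.3.3, over 15663 genes with Benjamini-Hochberg adjustment at 0.05. CPM are TMM-scaled. Effective lengths were tested with limma 3.58.1 on the log2 scale. Alternatives were DESeq2 1.42.0, voom, limma on log2(TPM + 1) or log2(TPM + 0.1), other filters and scaling, length offsets, a replicate block and leaving out each library. The scripts were tested on simulated data.

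The members, gene lists and tests were chosen with earlier results of these data known. Genes named were FOXL2, the 10 members, in each further list those called by edgeR (at most 6) and the 2 with the largest absolute log2 fold change, and the 5 most like MCFD2. Gene symbols were found for 60401 of 60671 identifiers. Sequences are from RefSeq (GRCh38.p14) and loci from GENCODE v29.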

Additional observations from a re-analysis of the deposited data

How the results depend on the processing

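The MCFD2 difference kept its direction and moved by less than 1 SD of the libraries in all 17 alternatives. The number of genes called over all genes, 40 by the reported edgeR test, was 353 with DESeq2, 344 with DESeq2 and length offsets, 13 with limma on log2(TPM + 1) and 13 on log2(TPM + 0.1), 70 with no filter, 64 with a mean of at least 50 counts and 11 with the replicate block, and it ran from 2 to 579 when 1 library was left out, with 579 without FOXL2 siRNA replicate 2, 105 without replicate 1, 9 without replicate 3 and 2, 3 and 2 without each control library in turn. Of the further lists, 1 gene was called in the reported fit and under the replicate block, 3 with DESeq2, 5 with DESeq2 and length offsets, 0 with limma on TPM at either pseudocount, 2 with no filter and 2 with a mean of at least 50 counts, and from 0 to 6 with 1 library left out, with 6 without FOXL2 siRNA replicate 2. These 6, beside 579 of the 16025 genes tested in that fit, were HYOU1, CTSC, DNAJB11, TFG, CNIH3 and MIA3. Of them DNAJB11, TFG and CNIH3 are named after their values were seen. Genes with a shifted effective length numbered 0, and from 0 to 1 with 1 library left out. The log2 fold change of SERPINA1 changed sign with length offsets (0.074 in DESeq2 and 0.054 in edgeR) and ran from -0.39 (without FOXL2 siRNA replicate 3) to 0.15 (without FOXL2 siRNA replicate 1) with 1 library left out, with 0.024 without control siRNA replicate 3. The cause of these changes was not tested. Same-numbered libraries did not deviate together (correlations of -0.03, 0.05 and 0.05), so the numbers were not treated as pairs. Depth limits SERPINA1 and CNIH2, both near 1 CPM or below.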
